A study of Mus musculus with 4 samples.

Results

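The cells described here were proximal tubule cells of kidneys from mice given glyoxylate, compared between day 4 (D4) and day 1 (D1) of injection. A barcode counted as such a cell when it held at least 3000 unique molecular identifiers (UMIs, one per captured RNA molecule), at most 50% mitochondrial UMIs, at least 2 UMIs of Lrp2, Slc34a1 and Cubn together, no Ptprc UMI and no Slc12a1 or Slc12a3 UMI. The D1 library gave 5449 such cells of 12730 barcodes and the D4 library 14194 of 16427, so 19643 of 29157 barcodes in the compared libraries entered, of 60670 in the series. At D0 8295 cells and at D7 11418 cells passed the same gate and are given as context.

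Whole kidneys of male C57BL/6 mice aged 6 to 8 weeks were dissociated with trypsin and sequenced as single cells by a 10x Genomics 3′ method after intraperitoneal glyoxylate on 0 (D0), 1 (D1), 4 (D4) or 7 (D7) successive days. All 4 groups were of that strain, sex and age, and D0 was the group without a day of glyoxylate. Each time point was 1 library, and the number of animals behind a library is not given in the sources used here. Time point, animal and library therefore cannot be told apart, no test between days was possible, and each interval below is an exact 95% interval for the ratio of Poisson counts that covers counting error only.

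Glyoxylate is metabolised to oxalate, which precipitates with calcium as calcium oxalate crystals in the tubules, and the injection is used as a mouse model of crystal nephropathy. The proximal tubule reabsorbs most of the filtered glucose, amino acids, phosphate and protein, lives mainly on fatty acid oxidation in its many mitochondria, and also makes glucose. After injury its cells are known to lose part of this programme, to express genes such as Havcr1 and Spp1, to arrest or divide, and to switch on stress genes. Immediate-early genes are transcribed within minutes of a stimulus, and in single-cell work they also respond to tissue dissociation.

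The gate was checked against proximal tubule markers. The 14 fixed proximal tubule markers summed to 25450, 24550, 24010 and 22650 CPM (a gene's UMIs scaled to a total of 1000000 for the gated cells of that library) at D0, D1, D4 and D7, and each was detected in every library. The gate required UMIs of Lrp2, Slc34a1 or Cubn, so their detection was set by the rule; the other 11 markers summed to 21550, 21790, 20360 and 19400 CPM. Of the 14, Aqp1 (a water channel), Slc13a3 (a dicarboxylate transporter) and Cubn (an endocytic receptor) were over 1.5-fold higher at D4, and none was as much lower; in cells with 5 to 15% mitochondrial UMIs their ratios were 1.31, 1.34 and 1.16, under the threshold. The gate held 73.1% of the D1 cells and 90.3% of the D4 cells that met the UMI and mitochondrial limits. At its edge, 322 D1 and 258 D4 cells entered with exactly 2 marker UMIs, and 329 and 241 cells stayed out with 1.

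The compared libraries differed in depth and in mitochondrial share. The gated cells held 56160657 UMIs at D1 and 80321306 at D4, with medians of 8698 and 5047.5 UMIs and 2363 and 1649 genes per cell. The median mitochondrial share was 9.46% at D1 (quartiles 3.65 to 16.7%) and 16.9% at D4 (12.6 to 22.3%), beside 14.9% at D0 and 17.9% at D7. Cells under 5% mitochondrial UMIs made up 31.2% of the gate at D1, 3.25% at D4, 14.8% at D0 and 5.48% at D7. The D1 library thus stood apart from the other 3, and values from cells with 5 to 15% mitochondrial UMIs (2147 D1 and 4946 D4 cells) are given beside the genes called below whose call they end, or whose ratio they turn or move by over 1.5 times. In that range 40 of 125 such calls among the genes examined singly were lost and 6 ratios crossed 1. Cells were also thinned to a common depth of 3000 UMIs and gated again on the thinned counts, which gave 4998 D1 and 14194 D4 cells. There 35 calls were lost and 1 ratio crossed 1. The cells differ in part from those of the main gate, so ratios in thinned cells reflect the new gating as well as depth. Shares of thinned cells with a UMI, given below, are of the main gate's cells instead. The part of depth and mitochondrial share in the results was not tested otherwise. The lowest UMI total of any barcode was 500 at D0 and D1, and 2919 and 2773 at D4 and D7, and the 3000 UMI minimum lies above all 4. The D1 and D4 libraries had 50 cell barcodes in common.

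Other cell types left small amounts of RNA in the gate. The 12 phagocyte markers summed to 95.6 CPM at D1 and 162 at D4, the 10 T or NK cell markers to 14.8 and 27.4, and the 6 neutrophil markers to 6.66 and 19.9. The 5 urothelial markers summed to 54.2 and 19.5 CPM and the 4 red cell markers to 208 and 125, both lower at D4. No defining marker of the phagocyte, T or NK, neutrophil, urothelial or red cell lists was at 0 in either library.

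**Figure D1:**
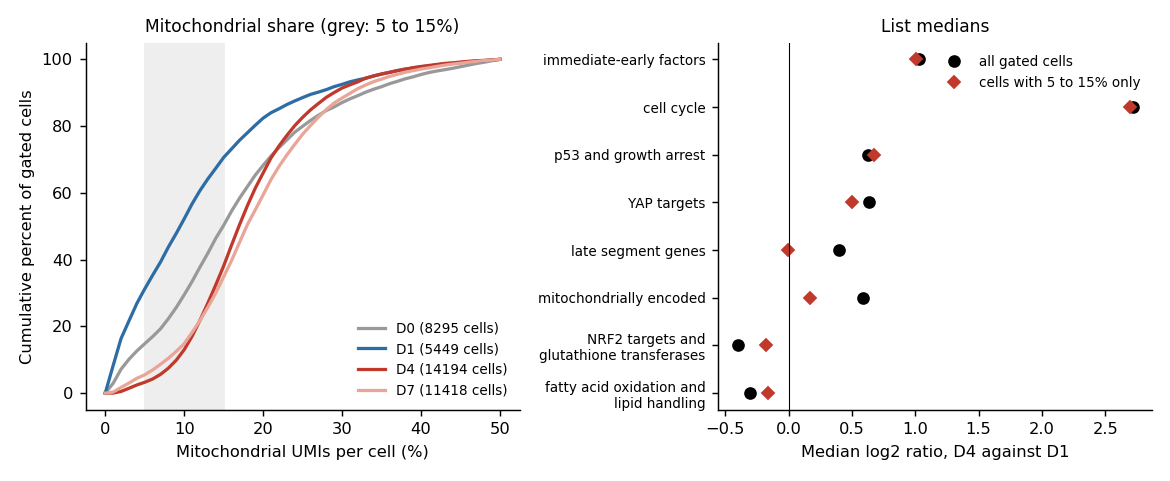
Left, cumulative percent of gated cells (vertical axis) by mitochondrial share of UMIs (horizontal axis, %) in the 4 libraries, with the 5 to 15% range in grey; the D1 curve lies to the left, with 31.2% of its cells under 5%, against 3.25% at D4. Right, the median log2 D4/D1 ratio of 8 gene lists in all gated cells (circles) and in cells of the grey range alone (diamonds): the immediate-early list stays near 1, while the late segment list goes from 0.39 to -0.01.

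Most of the transcriptome differed little between D1 and D4, and the genes that differed were more often higher than lower at D4. Of 8730 genes with at least 5 CPM in D1 or D4, 358 (4.1%) were called higher and 222 (2.54%) lower, called meaning a ratio of (CPM + 1) of at least 1.5 or at most 1/1.5. The remaining 8150 lay between, and the median log2 ratio over all genes compared was -0.07. At least 2-fold differences were seen for 115 genes upward and 27 downward. The nearest genes inside the threshold were Zfp36l2 (44.9 to 67.9 CPM) and Aes (773 to 515 CPM), and the nearest outside were Atp9a (7.14 to 11.2 CPM) and Sord (1229 to 819 CPM). The balance depended on the scaling: leaving mitochondrial UMIs out of the total shifted all log2 ratios up by 0.12 and gave 591 higher and 116 lower genes (83.6% of calls higher, against 61.7% here), and trimmed mean of M-values (TMM) scaling gave 416 and 150 (73.5%).

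Most calls fell on genes level from D0 to D1, but these were also most of the genes followed. Genes that had changed over the first day were called in larger shares. Adding D0, 8762 genes could be followed over both intervals, of which 118 (1.35%) were higher and 64 (0.73%) lower at D1 than at D0. Among the 8580 genes level over the first day, 298 (3.47%) were higher and 190 (2.21%) lower at D4. Of the 118 genes higher at D1, 22 (18.6%) were higher again at D4 and 34 (28.8%) were lower. Of the 64 genes lower at D1, 38 (59.4%) were higher at D4, and 2 (3.12%), Upk1b and Sprr2a3, were lower again. This last pair was named after their values were seen, and in the 5 to 15% mitochondrial range their D4/D1 ratios were 1.07 and 2.67. Both ratios contain the D1 library, so a value that is low or high in that library alone moves them in opposite directions, and the shares are descriptions of these libraries.

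Set against D0, the classes ended at different levels. Over all 8762 genes, 3.5% were higher and 0.924% lower at D4 than at D0. Of the 298 genes level first and higher at D4, 178 were also over 1.5-fold above D0 at D4 and 120 were within that range of D0. Of the 190 genes level first and lower at D4, 142 were within 1.5-fold of D0 at D4 and 48 were below it, and their median D1/D0 ratio was 1.23. Of the 38 genes lower and then higher, 32 were back within 1.5-fold of D0, and of the 34 genes higher and then lower, 28 were. The D7 library lay within 1.5-fold of D4 for 276 of the 298 and 178 of the 190.

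**Figure D2:**
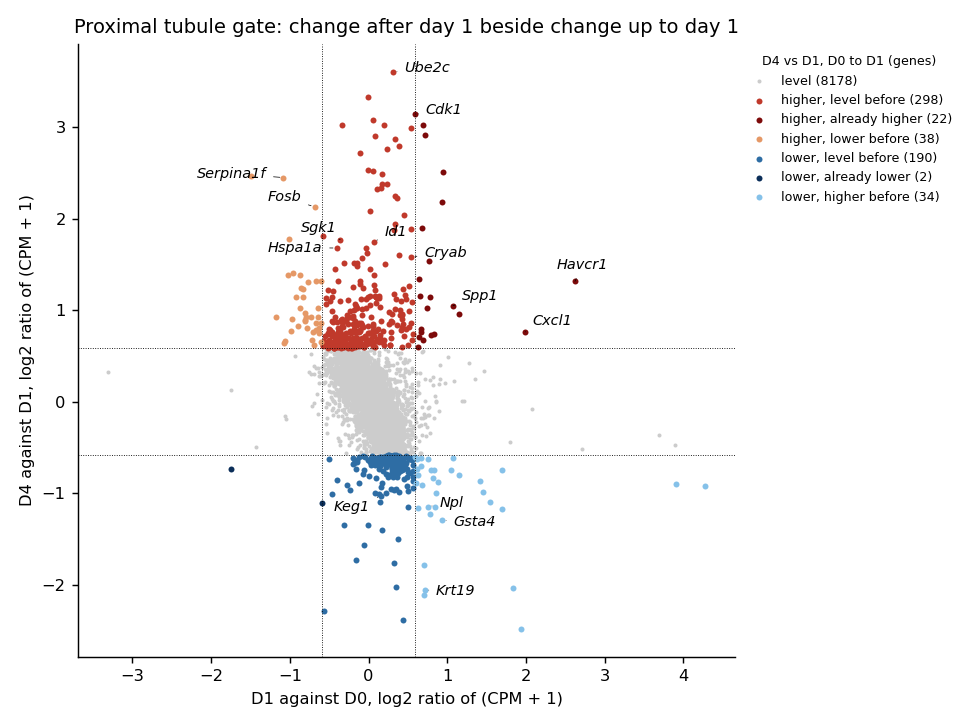
Each point is 1 of 8762 genes, with the log2 ratio of (CPM + 1) of D1 against D0 on the horizontal axis and of D4 against D1 on the vertical axis; dotted lines mark 1.5-fold. Red points above the upper line (298 genes) and blue points below the lower line (190 genes) were level over the first day, and the 22 dark red points, among them Havcr1, Spp1 and Cdk1, were higher over both intervals; both axes contain the D1 library.

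Injury genes of the tubule did not move as one group. Spp1, which encodes osteopontin, a secreted phosphoprotein that binds calcium crystals, stood at 256, 539, 1115 and 2111 CPM at D0, D1, D4 and D7. It increased at each library in turn, with a D4/D1 ratio of 2.07 (2.04 to 2.10), and lies on chromosome 5 (mm10, 104435118 to 104441050, plus strand). After thinning every cell to 3000 UMIs, 33.7% of D1 and 59.3% of D4 cells held an Spp1 UMI (51.2% and 70.1% unthinned). Leukocytes and thick ascending limb cells can express Spp1 themselves, so no background share is given for it. Among positive thinned tubule cells, the mean was 5.05 UMIs at D1 and 5.59 at D4.

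Havcr1, the kidney injury molecule KIM-1, was read at 0.0864, 5.70, 15.7 and 21 CPM, from 320 and 1258 UMIs at D1 and D4, a ratio of 2.75 (2.43 to 3.12). Its UMIs came from few cells: 91 of 5449 at D1 (1.67%) and 440 of 14194 at D4 (3.1%). After thinning those shares were 0.881% and 2.01%, beside 1.22% (4 of 328) and 3.45% (2 of 58) of leukocyte-gated barcodes (2.44% and 5.17% unthinned). These shares rest on so few leukocyte barcodes that they set the background only loosely, and nothing is read from the share of tubule cells. Lcn2, the secreted injury marker lipocalin-2, was at 0.605, 3.94, 3.09 and 5.49 CPM, under the 5 CPM minimum in both compared libraries. Tnfrsf12a, the TWEAK receptor, was at 12, 19.7, 34.8 and 63 CPM and Hbegf, an EGF receptor ligand, at 47.9, 36.5, 92.3 and 115 CPM, both called higher.

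The other members of the injury list did not go the same way. Of 18 compared members 4 were higher, 5 lower and 9 between, with a median log2 ratio of -0.02. For this and every list below, the shares over all genes compared were 4.1% higher and 2.54% lower. A list with few calls is not read as a shift. S100a6, a calcium-binding protein, was at 189.7, 189, 73.8 and 57.3 CPM, high at D0 and D1 and low at D4 and D7. The keratins Krt19 (20 to 4.06 CPM from D1 to D4), Krt7 (19.3 to 4.99 CPM) and Krt18 (23.4 to 6.32 CPM) were also lower at D4, as was the fibrinogen chain gene Fga (33.6 to 19.6 CPM). Urothelial markers moved with them: cells holding a urothelial UMI were 1.78% of the gate at D1 and 0.789% at D4. Without those cells the ratio was 0.806 for Krt19, 0.754 for Krt7, 0.460 for Krt18 and 0.735 for S100a6, and the list median became 0.56. In cells with 5 to 15% mitochondrial UMIs, S100a6 was higher at D4 (1.90), as were Krt7 (1.24) and Krt18 (1.13), so their direction depended on the cells used, while Krt19 had a ratio of 0.859 and the list median was 0.28.

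**Figure D3:**
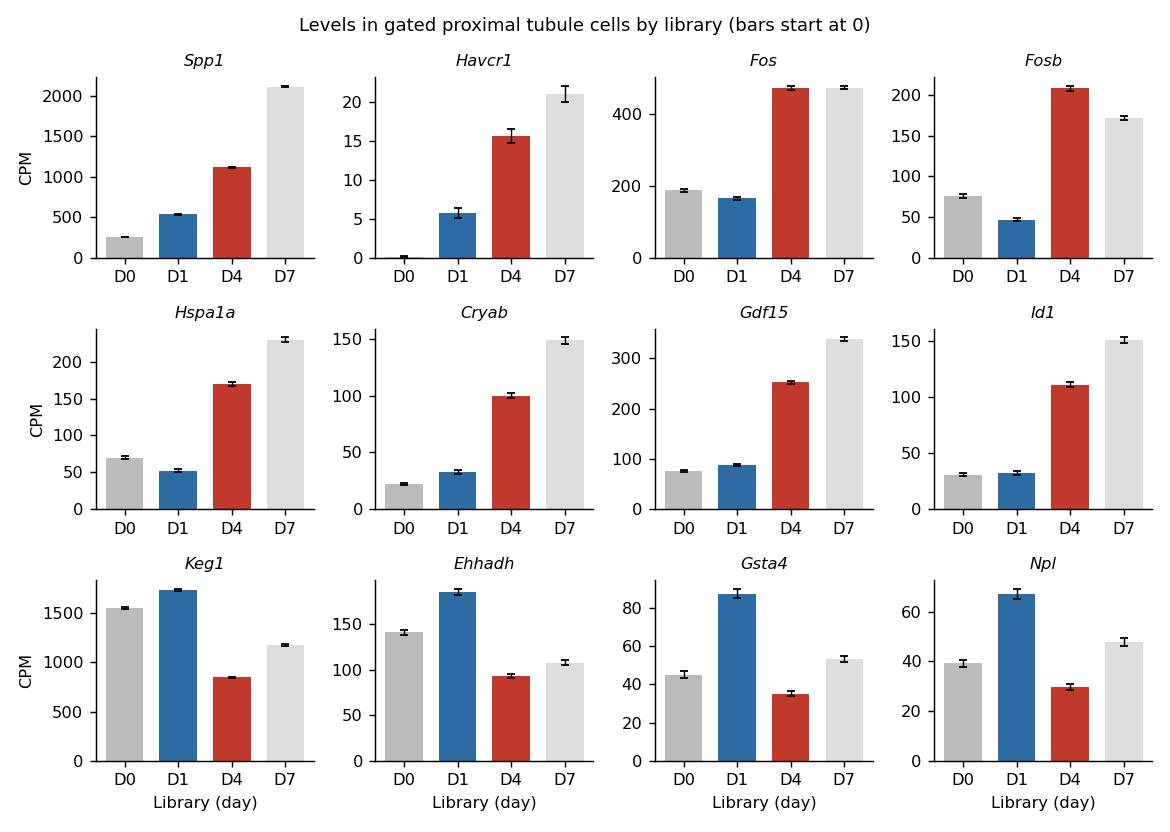
Level in CPM (vertical axis, from 0) of 12 genes in the gated cells of the D0, D1, D4 and D7 libraries, with exact 95% Poisson intervals for counting error as bars. Spp1 and Havcr1 increase at every library, Fos to Id1 are low at D0 and D1 and high at D4 and D7, and the lower row is highest at D1 and lowest at D4.

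Among the 28 lists, immediate-early factors had the most members called higher at D4. From D0 to D1, 3 of the compared members had been higher and 3 lower. Of 21 compared members 15 were higher at D4 and none lower (4.1% and 2.54% over all genes compared), and the median log2 ratio was 1.03. Fos, a subunit of the AP-1 transcription factor, was at 188, 165, 473 and 475 CPM, a D4/D1 ratio of 2.86 (2.80 to 2.93). Its partners followed: Fosb was at 76, 46.9, 208 and 172 CPM (ratio 4.44), Jun at 523, 437, 945 and 863 CPM (2.16) and Junb at 73, 65, 133 and 135 CPM (2.05). For all 4 genes D1 was the lowest library, and both D4 and D7 lay above D0.

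Atf3, a stress-induced repressor, was at 8.83, 11.3, 44.2 and 79.4 CPM with a ratio of 3.90 (3.59 to 4.26). The Krüppel-like factors Klf4 (13.8 to 41.4 CPM) and Klf6 (53.6 to 142 CPM) were higher at D4, as were Myc (12.5 to 30.4 CPM) and Egr1 (22 to 56.5 CPM). Feedback genes of the same group were higher too, among them Dusp1, a phosphatase that switches off MAP kinases, at 263, 173, 433 and 383 CPM, and Zfp36, which destabilises inflammatory mRNAs, at 48.5, 53.8, 86.5 and 88.7 CPM. The 6 members between the thresholds were Btg1, Jund, Fosl2, Ier5, Ier3 and Nfkbia, the last with a ratio of 0.855. In the 5 to 15% mitochondrial range the list median was 1.00.

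A Fos UMI was found in 15.1% of thinned D1 cells and 42.8% of thinned D4 cells (22.8% and 50.8% unthinned), with a mean of 3.1 and 3.32 UMIs in positive cells. Leukocytes express Fos themselves and no background share is given for it, so the share of cells with a UMI is not read as the share expressing Fos. Id1 went from 4.51% to 16.2% of thinned cells (9.52% and 23.4% unthinned), against 0.915% of 328 and 1.72% of 58 leukocyte-gated barcodes (2.13% and 1.72% unthinned; median depths 4567.5 and 3748.5 UMIs there, 8698 and 5047.5 in the tubule cells). Gdf15 went from 11.6% to 29.3% (23.1% and 39.8% unthinned), against 1.22% and 6.90% in leukocytes (1.52% and 12.1% unthinned).

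Id1, an inhibitor of differentiation factors and a target of BMP signalling, was at 30.8, 32.2, 111 and 150.2 CPM, a ratio of 3.43 (3.26 to 3.61). Its list had 3 of 8 compared members higher, Id1, Id3 (67.1 to 122 CPM) and the inhibitory Smad7 (33.9 to 53 CPM), and none lower. Id2 was level at 579, 568, 683 and 668 CPM. Among YAP targets, which respond to cell shape and stretch, 5 of 8 were higher and none lower, with a median log2 ratio of 0.63. Cyr61, a secreted matrix-associated protein, was at 87.7, 89.2, 245 and 295 CPM, and Amotl2, a YAP inhibitor, at 19.4, 17.9, 45.2 and 50 CPM. Rhob, a small GTPase outside these lists, was at 39.9, 37, 94.1 and 128 CPM.

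Several inducible heat shock genes were higher at D4, while the inducible Bag3 and Hsph1 and the constitutive members lay between the thresholds. Of 15 compared members 5 were higher and none lower, with a median log2 ratio of 0.27. Hspa1a, the inducible HSP70, was at 69.7, 52.4, 169.8 and 229.7 CPM, a ratio of 3.24 (3.12 to 3.38), and its near-identical copy Hspa1b at 47.1, 41.2, 83.5 and 105 CPM; reads could be split between the pair in counting. The small heat shock proteins Cryab and Hspb1 were at 22.1, 32.7, 99.8 and 149 CPM and 11.5, 16.4, 36.7 and 54.3 CPM, and the co-chaperone Dnajb1 at 45.6, 41.8, 71.4 and 72.9 CPM. Hspa8, the constitutive HSP70, read 2292, 2316, 2380.4 and 2308 CPM, and the mitochondrial chaperone Hspd1 616, 746, 549 and 556 CPM. Cryab depended on which cells were used: its ratio was 3.05 in all gated cells and 1.77 in the 5 to 15% mitochondrial range, where Hspa1a kept a ratio of 3.05.

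Genes of the p53 and growth arrest list were higher in 7 of 14 compared members and lower in none, with a median log2 ratio of 0.62. Gdf15, a secreted stress hormone, was at 76.3, 88.4, 252 and 338 CPM, a ratio of 2.85 (2.76 to 2.94). The cell cycle inhibitor Cdkn1a, which encodes p21, was at 5.39, 10.4, 18 and 23.2 CPM and was one of the 22 genes higher over both intervals; without cells holding a Mki67, Top2a or Cdk1 UMI its ratio was 1.25, under the threshold, against 1.73. Gadd45a, a growth arrest gene, was at 25.5, 33, 59.6 and 92.2 CPM. The p53 regulator Mdm2 (26.9 to 32.3 CPM), Ccng1 (51 to 58.3 CPM) and the apoptosis gene Bax (101 to 93.5 CPM) were between the thresholds.

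Cell cycle genes had the largest median ratio among the 28 lists, 2.72 on the log2 scale, with 12 of 15 compared members higher and none lower. Top2a, a topoisomerase of dividing cells, was at 0.533, 1.48, 19.1 and 26.1 CPM from 83 and 1532 UMIs at D1 and D4, and the mitotic kinase gene Cdk1 at 0.374, 1.07, 17.2 and 27.9 CPM. Ube2c, part of the mitotic exit machinery, went from 0.962 to 22.8 CPM, a ratio of 23.7 (18.1 to 31.7). Cells with a Mki67, Top2a or Cdk1 UMI were 57 of 5449 at D1 (1.05%) and 814 of 14194 at D4 (5.73%). Without those cells the list median was 0.20. Mki67, Top2a and Cdk1 are members of this list and have no UMI left there, so part of that fall was set by the choice of cells. The cytoskeletal genes Tubb5 and Stmn1, higher in the full gate at 1.72 and 1.75, had ratios of 0.853 and 0.902 without those cells. Top2a UMIs were in 2.41% of thinned D4 tubule cells (3.27% unthinned) and in 0.184% of thinned D1 cells (0.367% unthinned), but also in 4.27% and 10.3% of leukocyte-gated barcodes (5.18% and 12.1% unthinned), whose own division was not separated from shared RNA.

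The unfolded protein and integrated stress response list had 5 of 21 compared members higher and none lower. The stress-induced factor Ddit3 (CHOP) was at 22.9, 19.8, 48.6 and 45.4 CPM, the endoplasmic reticulum protein Herpud1 at 212, 165, 280.3 and 261 CPM, and Dnajb9 at 33.4, 25.8, 43.9 and 42.8 CPM, the last with a ratio of 1.44 in the 5 to 15% mitochondrial range, under the threshold. Hspa5, the main chaperone of that compartment, went from 349 to 487 CPM, and the list median was 0.23. Complement and coagulation genes were higher in 5 of 8 and lower in none. C3, the central complement component, was at 4.15, 7.96, 13.8 and 21 CPM, and Cfi, a protease that inactivates it, at 2.78, 3.15, 8.25 and 17.6 CPM. C4b was at 2.68, 4.24, 11.6 and 23.5 CPM. In the 242 D1 and 1393 D4 cells without a marker UMI of any other class the ratio was 0.999 for C3 and 0.862 for C4b. Those markers include Cldn10 (279 and 285 CPM in the gate at D1 and D4) and Kl (102 and 109 CPM), so cells holding either were left out too. Ratios from these few cells have no counting intervals, and nothing is read from them here or below. Cp, the copper-binding ferroxidase ceruloplasmin, went from 0.712 to 8.59 CPM, on 40 and 690 UMIs.

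MHC class II genes were higher at D4 beside more leukocyte RNA. H2-Ab1 was at 21.3, 22.9, 51.8 and 76.7 CPM, H2-Aa at 10.5, 14.4, 25.4 and 35.9 CPM and Cd74, a phagocyte marker here, at 41.4, 51, 94.2 and 138 CPM. By the median over leukocyte markers, leukocyte RNA in the gate was 0.376% of that in leukocyte-gated barcodes at D1 and 0.943% at D4. In the cells without any other-class marker UMI the ratio was 0.625 for H2-Aa and 1.67 for H2-Ab1. Cd74 is one of those markers, so every cell holding a Cd74 UMI was left out there. In thinned cells the ratios of H2-Ab1, H2-Aa and Cd74 were 1.37, 1.03 and 1.08, all under the threshold. MHC class I genes were level (H2-K1 58 to 64 CPM, H2-D1 60.2 to 69.6 CPM). The interferon-response factor Irf1 was lower, 1.51, 5.70, 2.68 and 4.17 CPM. Of the chemokine list 3 of 9 compared members were higher, Cxcl10 (4.74 to 10.7 CPM), the neutrophil attractant Cxcl1 (1.43, 8.65, 15.4 and 29.9 CPM over the 4 libraries) and the EGF receptor gene Egfr (16.7 to 26.4 CPM); Cxcl10 had a ratio of 0.646 in the cells without other-class markers and 1.39 in thinned cells. Egfr had a ratio of 1.34 in the 5 to 15% range, and the list median went from 0.30 to -0.09.

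Hormone and fasting response genes moved both ways. Of 18 compared members 8 were higher and 2 lower, with a median log2 ratio of 0.52. Sgk1, a kinase induced by corticosteroids that regulates sodium transport, was at 39.2, 30.3, 106 and 121 CPM, a D4/D1 ratio of 3.49 (3.31 to 3.68), the largest among genes level over the first day that reached 50 CPM. Angptl4, a lipase inhibitor induced by fasting, was at 83.9, 49, 123 and 118 CPM, Txnip, which restrains glucose uptake, at 158, 112, 241 and 188 CPM, and Arrdc3 at 78.5, 44.3, 87.9 and 63.7 CPM. These last 3 were lowest at D1. G6pc, the final enzyme of glucose production, was at 462, 220.3, 348 and 204 CPM, while Pck1, which catalyses an early committed step, was at 1543, 1921, 1213 and 1127 CPM, highest at D1. The ratios of G6pc and Pck1 were 1.36 and 0.716 in the 5 to 15% mitochondrial range, both within the thresholds. Irs2, an insulin receptor adaptor, was at 18.1, 31.9, 13 and 16.4 CPM.

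Of 15 compared circadian genes 4 were higher and none lower (4.1% and 2.54% over all genes compared). Nr1d1, a clock repressor, was at 49.1, 27.1, 64.6 and 66.6 CPM, Bhlhe40 at 69.3, 48.1, 113 and 117 CPM, Cry2 at 5.78, 4.11, 8.37 and 7.24 CPM and Per2 at 3.59, 3.26, 6.34 and 4.33 CPM, each lowest at D1. The core clock genes Arntl (9.47 to 8.54 CPM) and Clock (26.6 to 26.5 CPM) were level. The hour of day at which each kidney was taken is not given in the sources used here, so it cannot be told apart from the day of glyoxylate. Cish and Socs2, cytokine signalling inhibitors chosen after their values were seen, were among the genes higher and then lower, at 11.5, 46.6, 7.52 and 23 CPM and 24.4, 40.7, 8.64 and 30.8 CPM.

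Several glutathione and NRF2 genes were highest at D1. Of 20 compared members 5 were lower at D4 and 1 higher, with a median log2 ratio of -0.40. The glutathione transferases Gsta4, Gsta2 and Gstm1 were at 45.2, 87.7, 35.1 and 53.3 CPM, 655, 1105, 714 and 861 CPM and 407, 624, 404 and 439 CPM, each higher at D1 than at D0 and close to D0 again at D4. Gclc, the catalytic subunit of the rate-limiting enzyme of glutathione synthesis, was at 109, 162, 96.1 and 160.3 CPM. Osgin1, an oxidative stress gene, went the other way at 92.8, 78.6, 157 and 149 CPM. In the 5 to 15% mitochondrial range the list median was -0.18, with ratios of 1.09 for Gsta4, 0.904 for Gsta2 and 0.802 for Gstm1, and Gsta genes are similar enough in sequence for reads to be split.

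Metabolic enzymes of the tubule were mostly lower at D4 by less than 1.5-fold. Fatty acid oxidation and lipid genes had 4 of 26 compared members lower and none higher, with a median log2 ratio of -0.31. Ehhadh, the peroxisomal bifunctional enzyme, was at 141, 185, 93.1 and 108 CPM, a ratio of 0.502 (0.487 to 0.517), and 0.459 in the 5 to 15% mitochondrial range. Lipoprotein lipase Lpl was at 408, 358, 225 and 253 CPM and the acyl-CoA synthetase Acsm3 at 187, 142, 78.2 and 78.2 CPM, both below D0 already at D1. The fatty acid carrier Fabp3 went from 78.1 to 41.7 CPM, a ratio of 0.534 that was 0.882 in the 5 to 15% range, where the list median was -0.16. The mitochondrial enzymes Acadm (667 to 489 CPM), Hadha (92.5 to 72.2 CPM) and Acadl (421 to 302 CPM) were lower within the thresholds. Acadl, like Ehhadh, was highest at D1, at 301, 421, 302 and 306 CPM.

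Keg1, a kidney-expressed gene related to glycine acyltransferases, was at 1556, 1736, 848 and 1175 CPM, a ratio of 0.488 (0.484 to 0.493) and 0.505 in the 5 to 15% range. It was detected in 96.4% of thinned D1 cells and 88.0% of thinned D4 cells (99.0% and 95.1% unthinned), against 19.8% and 19.0% of leukocyte-gated barcodes (29.6% and 24.1% unthinned), with a mean of 5.27 and 2.85 UMIs in positive tubule cells. Both the share of cells with a UMI and the mean in positive cells were thus lower. How the difference was spread over cells was not examined. Also lower were the ubiquitin ligase gene Rnf5 (112 to 56.1 CPM), the selenoprotein gene Sepw1 (94.1 to 47.6 CPM), aldose reductase Akr1b3 (68.2 to 35.3 CPM), Acyp2 (109 to 60 CPM), Ggact (79.4 to 45 CPM), Apoo (88.4 to 51.6 CPM) and the nucleotide kinase gene Cmpk1 (220.4 to 129.6 CPM). In the 5 to 15% range 4 of these were within the thresholds, Sepw1 at a ratio of 0.870, Akr1b3 at 0.717, Apoo at 0.705 and Cmpk1 at 0.724, and Akr1b3 was also at 0.720 without urothelial-UMI cells and 0.764 in thinned cells. Of genes higher at D1 and then lower, the sialic acid lyase gene Npl was at 39.2, 67.1, 29.8 and 47.8 CPM (ratio 0.444, and 0.720 in the 5 to 15% range) and the nicotinamide riboside kinase gene Nmrk1 at 76.8, 117, 62.9 and 85.4 CPM.

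Creatine and amino acid genes were lower in 3 of 18 and higher in none. Gatm, which makes the precursor of creatine, was at 1085, 984, 635 and 562 CPM, and Oat, ornithine aminotransferase, at 100.4, 129.8, 77.1 and 88.8 CPM. Their ratios of 0.645 and 0.594 were 0.952 and 0.941 in the 5 to 15% range, and the list median was -0.08, against -0.30. Of 14 gluconeogenesis and ammonia genes, 1 was higher and 2 lower. Genes that handle glyoxylate and oxalate were nearly all level, with 1 of 12 compared members called. That member was Slc26a1, a sulfate and oxalate exchanger, at 101, 65.7, 104 and 90.4 CPM, with a ratio of 1.58 that was 1.40 in the 5 to 15% range. Grhpr, which reduces glyoxylate to glycolate, was at 456, 485, 376 and 376 CPM, Hoga1, which forms glyoxylate from hydroxyproline breakdown, at 134, 149, 132 and 123 CPM, and Ldha, which can oxidise glyoxylate to oxalate, at 516, 638, 488 and 534 CPM. Agxt and Hao1 were under the CPM minimum.

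Transcripts made in the mitochondrion were higher at D4, while most nuclear genes of the same respiratory complexes were lower by less than 1.5-fold. All 13 mitochondrially encoded mRNAs had a ratio above 1 and 6 were called higher, with a median log2 ratio of 0.58. The complex I subunit mt-Nd3 read 3206, 1698, 3747 and 3412 CPM and the cytochrome oxidase subunit mt-Co3 31625, 18010.0, 33521 and 36061 CPM, both lowest at D1. Of 21 nuclear subunit genes 3 were lower and none higher, with a median of -0.21; Uqcrfs1, the iron-sulfur subunit of complex III, was at 623, 834, 496 and 522 CPM. These values move with the mitochondrial share given above. In the 5 to 15% range, which limits that share itself, the medians were 0.17 and -0.14. The ratios there were 1.37 for mt-Co3 and 0.719 for Uqcrfs1. CPM totals include mitochondrial UMIs, so a larger mitochondrial share lowers the CPM of every nuclear gene. With those UMIs left out of the total, the medians were 0.70 and -0.09, beside 0.05 over all genes compared. Ribosomal and proteasome genes leaned the same way as the nuclear subunits in families added after the values were seen. Of 81 cytosolic ribosomal protein genes 7 had a ratio above 1, and of 37 proteasome genes 2, with median log2 ratios of -0.25 and -0.35. Solute carriers leaned upward, 148 of 186 above 1 against 3675 of all 8730 genes. Over genes of any kind, the median log2 ratio was -0.15 in the shortest quartile by length and 0.04 in the longest. Among genes with at least 20 CPM it was -0.16. The part of gene length and level in these family leanings was not tested.

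Transporter lists were mostly within the thresholds. Early segment genes had 1 of 13 higher and 1 lower, and organic ion transport and detoxification genes 2 of 18 higher and 1 lower. Over all genes compared, 4.1% were higher and 2.54% lower. Cyp4a14, a fatty acid hydroxylase under PPAR-alpha control, was at 22.8, 20.4, 58.8 and 62 CPM, a ratio of 2.88 that was 1.84 in the 5 to 15% mitochondrial range. Late segment genes had 6 of 15 higher and none lower, led by the protease inhibitor genes Serpina1f and Serpina1d. These were at 4.88, 1.78, 14.2 and 19.7 CPM and 11.1, 5.02, 19.7 and 21.8 CPM. They belong to a family of paralogs, between which reads could be split, so their counts are uncertain. Their ratios of 7.96 and 3.92 were 2.94 and 2.04 in the 5 to 15% range. Their list median, 0.39, was -0.01 there, and those of the organic ion and androgen lists changed sign, to -0.09 and -0.19. Kap, an androgen-regulated kidney transcript, read 47869, 37265, 46991 and 38586 CPM.

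The remaining lists were small or mixed. Lysosome genes had 2 of 17 higher (Psap and Grn) and none lower, iron and metal genes 1 of 10 higher and 2 lower, and tubulin, actin and thymosin genes 2 of 17 higher and 1 lower. Over all genes compared, 4.1% were higher and 2.54% lower. The ratios of Psap and Grn were 1.17 and 1.23 in the 5 to 15% mitochondrial range, both under the threshold, and the lysosome median was 0.10, against 0.28. The median of the tubulin, actin and thymosin list went from -0.16 to 0.26. The iron storage gene Ftl1 was at 9222, 11542, 7582 and 8255 CPM, with a ratio of 0.850 in that range. Of 5 compared crystal-binding genes 2 were higher, Spp1 and Umod; Umod, a thick ascending limb gene, went from 10.5 to 16.4 CPM, and its ratio in thinned cells was 0.985.

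**Figure D4:**
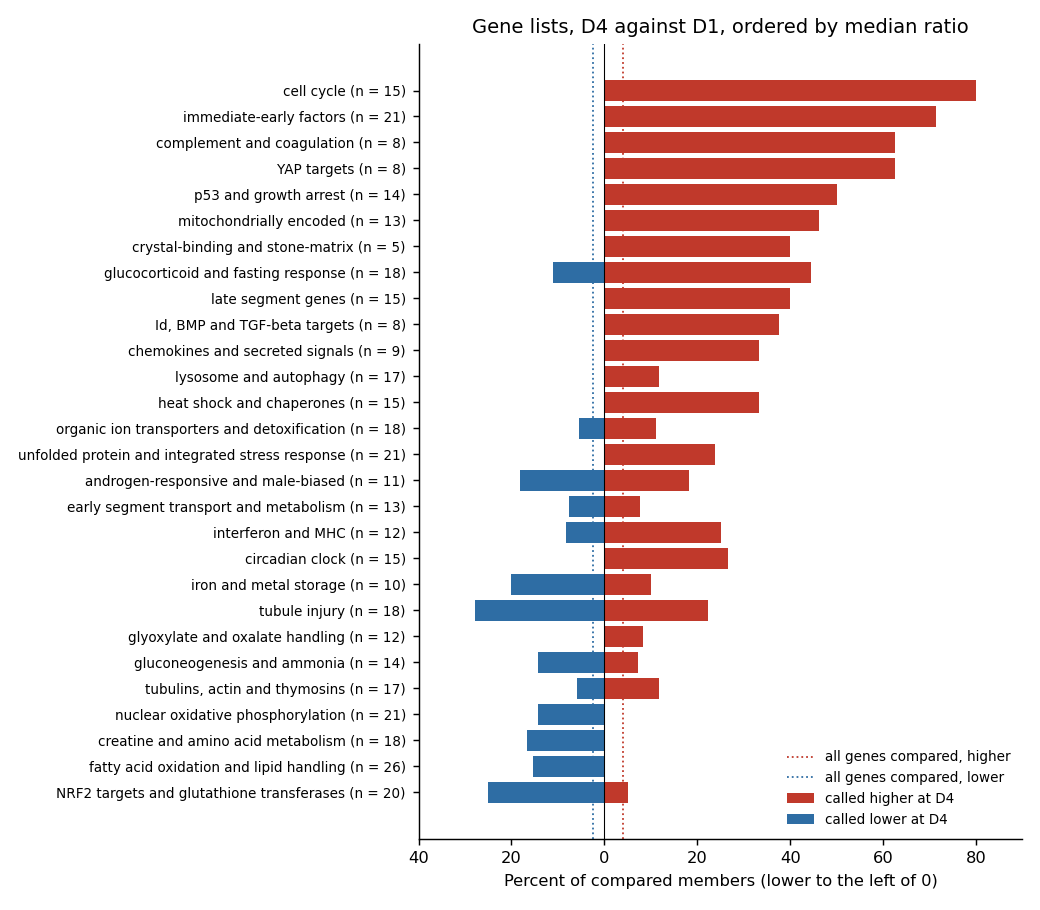
Percent of compared members (horizontal axis) called higher at D4 (red, right of 0) or lower (blue, left of 0) in 28 gene lists, ordered by median ratio, with the number compared beside each name and dotted lines at the 4.1% and 2.54% of all genes compared. Cell cycle (12 of 15) and immediate-early factors (15 of 21) have the largest shares called higher, and the injury list (5 of 18) and the NRF2 list (5 of 20) the largest shares called lower.

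Cells of the early and late segments differed in some of these responses. Early cells held an Slc5a2 or Slc5a12 UMI and no Slc7a13, Serpina1d or Serpina1f UMI, and late cells the reverse. Serpina1d and Serpina1f were themselves called higher at D4, so their change bears on which cells counted as late. Slc7a13 (347 and 326 CPM at D1 and D4) was also used alone in their place, a definition added after the values were seen. It gave 1744 and 3940 early and 2256 and 5519 late cells. Of 324 segment ratios 320 stayed within their counting intervals, with none of the called ones crossing 1. The definitions share nearly all of their cells, so small moves were largely set in advance and nothing is read from this count. Early cells were 1734 at D1 and 3877 at D4 (31.8% and 27.3% of the gate) and late cells 2263 and 5577 (41.5% and 39.3%). Of 8298 genes compared in both, 241 were called in the same direction, 8 in opposite directions, 460 in early cells alone and 216 in late cells alone. A call in one segment and not in the other was not tested as a difference.

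Spp1 went from 1045 to 1645 CPM in early cells, a ratio of 1.57 (1.54 to 1.60), and from 158 to 742 CPM in late cells, a ratio of 4.70 (4.55 to 4.86). The early cells were the higher at both days and the late cells had the larger ratio. Havcr1 had ratios of 1.26 (0.913 to 1.75) in early and 3.61 (3.01 to 4.35) in late cells. Cryab showed the same order, 2.23 (1.94 to 2.57) and 4.32 (4.02 to 4.64). Under the Slc7a13 definition the early ratio was 1.76 for Havcr1 and 2.83 for Cryab, both above the early intervals just given. The order held for both. Hspa1a showed the reverse order, 5.29 (4.80 to 5.84) and 2.62 (2.49 to 2.77). Gdf15 was higher in both, 3.81 (3.55 to 4.09) and 2.19 (2.10 to 2.29), as were Id1, 2.84 (2.59 to 3.11) and 3.99 (3.68 to 4.34), and Fos, 3.24 (3.11 to 3.38) and 2.46 (2.37 to 2.54).

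Several lower calls belonged to 1 segment. Keg1 was lower in both, 0.486 (0.476 to 0.496) early and 0.474 (0.468 to 0.481) late. Gatm was lower in early cells, where it is abundant (2267 to 1437 CPM), and had a ratio of 1.33 (1.28 to 1.39) in late cells. Fabp3, Npl, Oat and Sepw1 were likewise lower in early cells alone, with late ratios of 1.34 (1.15 to 1.56), 1.12 (0.953 to 1.33), 1.30 (1.16 to 1.45) and 1.01 (0.879 to 1.17). Acsm3, Lpl and the organic anion transporter gene Slco1a1 were lower in late cells, where they are abundant, with early ratios of 1.13 (0.954 to 1.34), 1.35 (1.25 to 1.45) and 2.19 (1.71 to 2.81). For each of these 8 genes the lower D4 level was in the segment where the gene had its higher CPM. They were picked for a lower call in the whole gate, where that segment weighs most. The pattern therefore follows from the choice of genes, and nothing is read from it.

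**Figure D5:**
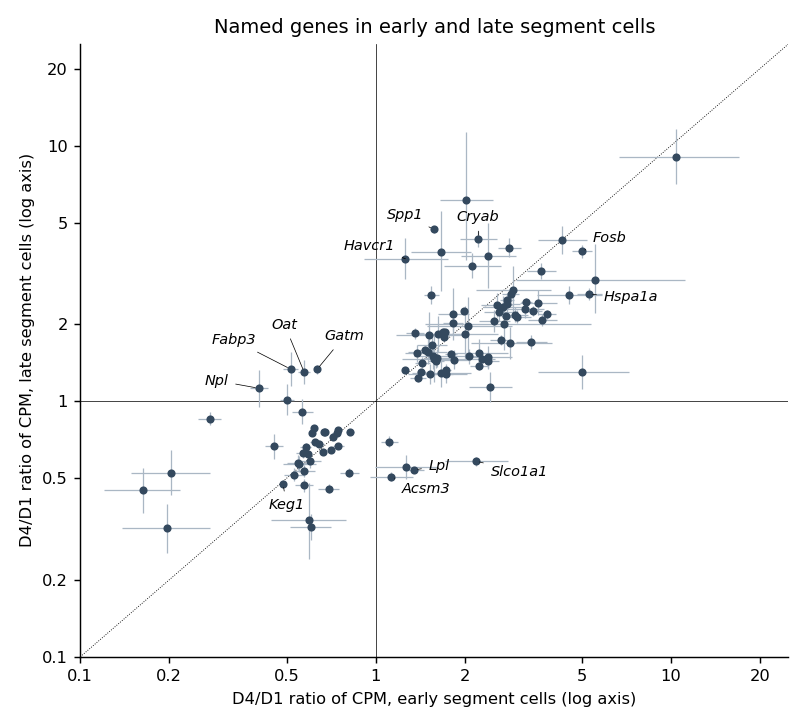
D4/D1 ratio of CPM in early (horizontal) and late (vertical) segment cells on log axes, for 117 named genes with at least 10 UMIs in each of the 4 sums, with exact 95% Poisson-ratio intervals and a dotted line of equal ratios. Spp1, Havcr1 and Cryab lie above the line, Hspa1a below it, and Fabp3, Npl, Oat and Gatm lie at the upper left, lower in early cells and not in late ones.

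Promoter windows of the most changed named genes are shown for the motifs they held. RefSeq windows (GRCm38.p6, the 250 bases before a start) were found for 7 of the 12 named genes level first and higher at D4 and 9 of the 12 lower. Both strands were searched for GAANNTTC (heat shock element core), CACGTG (E-box), TGANTCA (AP-1), TGACGTCA (cAMP response element) and TGATGCAA (C/EBP-ATF element), none of which contains another. A gene can have several windows, and these genes had 13 and 10. GAANNTTC was in 3 of the 13 windows of higher genes (Hspa1a and Sgk1), 1 of the 10 of lower genes (S100a6) and 6.69% of all 32851 windows, and CACGTG in 3 of 13 (Gdf15, Klf6 and Sgk1), 0 of 10 and 6.02%. The other 3 motifs were in none of these windows and in 6.75%, 1.55% and 0.792% of all windows. The windows below, 5′ to 3′ on the gene's strand, are of Hspa1a (chr17:34972157-34972406, minus strand), Gdf15 (chr8:70632096-70632345, minus strand) and Klf6 (chr13:5861239-5861488, plus strand), shown because these members of the heat shock, growth arrest and immediate-early lists had a match, which is in capitals.
Hspa1a: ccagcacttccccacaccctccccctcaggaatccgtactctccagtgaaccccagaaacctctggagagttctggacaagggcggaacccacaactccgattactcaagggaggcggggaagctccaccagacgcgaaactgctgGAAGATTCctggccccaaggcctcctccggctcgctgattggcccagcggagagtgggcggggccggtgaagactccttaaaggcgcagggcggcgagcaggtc
Gdf15: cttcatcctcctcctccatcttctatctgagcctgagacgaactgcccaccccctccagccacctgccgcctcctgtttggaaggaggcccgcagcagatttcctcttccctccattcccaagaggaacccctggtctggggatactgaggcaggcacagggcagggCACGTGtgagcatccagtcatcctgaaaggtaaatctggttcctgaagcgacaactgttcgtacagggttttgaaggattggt
Klf6: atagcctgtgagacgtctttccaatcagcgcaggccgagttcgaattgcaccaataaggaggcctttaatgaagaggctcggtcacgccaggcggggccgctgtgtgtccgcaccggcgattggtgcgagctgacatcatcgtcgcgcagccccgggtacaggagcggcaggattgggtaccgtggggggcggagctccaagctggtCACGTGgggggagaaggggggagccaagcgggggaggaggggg
A match describes these letters only and is no evidence that a factor was bound.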

How the data were processed

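Single-cell UMI counts per gene and barcode were used as deposited by the authors, unnormalized, in 1 matrix per library. Cell Ranger 3.1.0 and mm10 are named in the submitters' processing notes. Software version 3.0.1 stands in the matrices, per the file headers. Matrices held 27998 genes. Members and gene lists were chosen with earlier results of these data known.

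Gated cells were summed per library and divided by their UMI total (56160657 at D1 and 80321306 at D4). Genes with at least 5 CPM were compared, and called at a 1.5-fold ratio of (CPM + 1). Intervals are exact 95% conditional Poisson-ratio intervals or Clopper-Pearson intervals, for counting error only. With 1 library per time point no test was run. The ratio script was tested on simulated counts. Doublets were kept, and removing the highest Scrublet scores was an alternative. Genes were named by a rule: the 12 highest and 12 lowest ratios among genes level from D0 to D1, and the 6 farthest from 1 in other classes, with at least 50 CPM and 100 UMIs, without marker, mitochondrial, ribosomal, haemoglobin and unnamed genes, the 4 members of each list farthest from a ratio of 1, and Havcr1, Lcn2 and Spp1; further list members are named to describe their list, after their values were seen. In R 4.3.3, edgeR 4.0.16 gave TMM factors alone. Python 3.11.15, numpy 2.4.6, scipy 1.17.1 and scanpy 1.11.5 did the rest. Gene positions are from GENCODE on GRCm38.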

Additional observations from a re-analysis of the deposited data

Results flagged for a closer look

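In 8 genes, 1.5-fold calls in early and late segment cells went in opposite directions between D1 and D4. The difference between segments was not tested, since each rests on 1 library per day. Slco1a1, an organic anion transporter gene, had a D4/D1 ratio of 2.19 in early cells (5.80 to 12.7 CPM). Its ratio in late cells was 0.583 (222.5 to 129.7 CPM). Rgs3, a regulator of G protein signalling, had ratios of 1.74 (4.54 to 7.88 CPM) and 0.475 (27.1 to 12.9 CPM). Klk1, a kallikrein of the distal tubule, had ratios of 0.380 (35.3 to 13.4 CPM) and 1.95 (6.26 to 12.2 CPM). The unnamed gene model Gm14964 had ratios of 0.520 (50.1 to 26.05 CPM) and 1.84 (5.305 to 9.75 CPM). The higher ratio of each was in the segment with the lower CPM, and RNA shared between segments was not tested. Gated cells with UMIs of both segments were 564 of 5449 at D1 and 2263 of 14194 at D4. Jchain, a plasma cell gene, had ratios of 0.0319 and 6.46, at 27.8 and 0.887 CPM in early cells and 1.34 and 8.63 CPM in late cells at D1 and D4. The whole gate held 492 Jchain UMIs at D1 and 391 at D4. The number of cells they came from was not examined, so they are not read as a response of either segment.

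The 3 haemoglobin genes moved together. Hbb-bs had ratios of 16.3 in early and 0.486 in late cells, at 4.22 and 68.6 CPM in early cells and 88.6 and 43.1 CPM in late cells. Hbb-bt had ratios of 30.2 and 0.298, and Hba-a1 18.8 and 0.614. Summed red cell markers over the whole gate were 10.1, 208, 125 and 46.7 CPM from D0 to D7.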

How the results depend on the processing

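Counts of calls are given as higher and lower in total, then by class. The main values were 358 and 222, with 298 higher and 190 lower after a level first day, 22 higher again, 38 lower then higher, 2 lower again and 34 higher then lower. No paired analysis was possible because each time point was 1 library.

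Cell choice moved them as follows. In the 5 to 15% mitochondrial range 106 genes were lower, 81 of them level first, 44 were higher again and 4 lower again; 314 of the 580 calls remained and 6 turned. Thinned cells gave 229 higher, 181 level first, and 0 lower again. The 242 D1 and 1393 D4 cells without other-class markers gave 1175 and 1014, with 667 and 632 level first, 50 higher again, 499 lower then higher, 4 lower again and 382 higher then lower. Early cells gave 556 higher, 481 level first, 12 higher again, 64 lower then higher and 0 lower again; late cells gave 47 higher again. Without cells with a Mki67, Top2a or Cdk1 UMI, a setting added after the data were seen, 10 were higher again. The count of genes lower again was 1 in late cells, without those cycling cells, with at least 1000 or 5000 UMIs, with at least 5 gate marker UMIs, and without Havcr1 cells, and 0 without urothelial-UMI cells (also added) and for the mean of single-cell CPM.

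Scaling and thresholds moved them too. Leaving mitochondrial UMIs out gave 591 and 116, with 502 and 91 level first and 67 lower then higher, and TMM gave 126 lower and level first. A pseudocount of 10 CPM gave 150 and 76 (136 and 65 level first, 2 higher again, 12 lower then higher, 0 lower again, 11 higher then lower). A minimum of 20 CPM gave 182 and 139 (156, 121, 5, 22, 0 and 18 in that order), and a 2-fold threshold 115 and 27 (109, 24, 2, 4, 0 and 4). Without a minimum 579 were higher, 508 of them level first.

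Of 125 called genes examined singly, 40 lost their call in the 5 to 15% range, 35 in thinned cells, 22 without other-class markers, 28 in late and 18 in early cells, 19 with at least 5 gate marker UMIs, 13 for the mean of single-cell CPM, 11 without mitochondrial UMIs, 8 under TMM and 0 to 6 under each other gate. Among these called genes the ratios that crossed 1, the cause not tested, were as follows. In the 5 to 15% range Upk1b was 1.07, S100a6 was 1.90, Gsta4 1.09, Krt7 1.24, Krt18 1.13 and Slc22a13 0.768 (with Sprr2a3, not among the 125, at 2.67), and in thinned cells Umod was 0.985. Without other-class markers S100a6 was 1.14, Krt7 1.51, H2-Aa 0.625, Cxcl10 0.646, C4b 0.862 and C3 0.999. Early cells gave Acsm3 1.13, Slco1a1 2.19 and Lpl 1.35, and late cells Sepw1 1.01, Fabp3 1.33, Npl 1.12, Gatm 1.33 and Oat 1.30. Without cycling-UMI cells Tubb5 was 0.853 and Stmn1 0.902. With 1 library per day, no alternative replaces a replicate.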
